A study of Mus musculus with 31 samples.

Results

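MicroRNAs (miRNAs) were measured by small-RNA-seq in 4 libraries of WT and 4 libraries of CLIPΔ mouse embryonic stem cells (mESCs). Both are ES-E14TG2a mESCs, a feeder-independent mouse line, and both carry a FLAG tag on the endogenous Trim71 protein. CLIPΔ mESCs lack, on both alleles, the stretch of the *Ago2* 3’UTR that the RNA-binding protein Trim71 binds, and were made by CRISPR/Cas9 editing and growth from single cells. *Ago2* KO mESCs and *Ago2* KO/CLIPΔ mESCs, which lack the Argonaute protein Ago2, had 4 small-RNA-seq libraries each. All were cultured in 2i medium with lif. The libraries are labelled as biological replicates, and which clone a library came from is not stated in the sources used here, so the p-values measure the spread between these libraries. The set described holds the miRNAs whose deposited value averaged at least 100 over the WT and CLIPΔ libraries, which were 227 of the 507 listed. The last miRNA inside this limit was miR-148b-5p at 101 TPM and the first outside was miR-700-5p at 99.6 TPM.

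A miRNA gene is transcribed as a long primary RNA, cut by Drosha to a hairpin and by Dicer to a duplex, from which one arm (5p or 3p) is kept by an Argonaute protein. The seed, bases 2 to 8 of the mature miRNA, sets most of its target recognition, and miRNAs with the same seed form a family. Many miRNA genes lie close together and are cut from 1 shared primary RNA, so members of such a cluster are made together, whereas members of a seed family can come from distant genes. The miR-290 and miR-302 clusters are the characteristic miRNAs of early embryonic cells, and let-7 is the family that rises as they differentiate.

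Mature sequences of all but 31 of the 227 miRNAs were matched by name in RefSeq for GRCm38.p6, the assembly also called mm10. The following are shown because their seeds cross the clusters that moved differently, or because they belong to the largest changes outside let-7, with the seed in capitals.
miR-291a-3p: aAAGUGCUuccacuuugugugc
miR-294-3p: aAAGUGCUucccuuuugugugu
miR-295-3p: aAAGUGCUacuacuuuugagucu
miR-302b-3p: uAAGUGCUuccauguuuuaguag
miR-302d-3p: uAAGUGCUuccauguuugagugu
miR-302a-5p: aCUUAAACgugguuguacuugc
miR-450b-3p: aUUGGGAAcauuuugcaugcau
miR-31-5p: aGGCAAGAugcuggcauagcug
miR-92a-1-5p: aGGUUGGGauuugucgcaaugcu
miR-27a-3p: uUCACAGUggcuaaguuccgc
miR-27b-3p: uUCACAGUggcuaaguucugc
miR-146a-5p: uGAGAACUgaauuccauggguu
miR-146b-5p: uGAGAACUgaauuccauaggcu
miR-1981-5p: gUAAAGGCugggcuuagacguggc
miR-1981-3p: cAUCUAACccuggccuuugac
miR-744-5p: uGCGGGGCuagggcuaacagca
miR-211-5p: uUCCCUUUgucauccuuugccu
miR-127-5p: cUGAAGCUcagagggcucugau
miR-376b-5p: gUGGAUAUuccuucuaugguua
miR-411-5p: uAGUAGACcguauagcguacg
miR-17-5p: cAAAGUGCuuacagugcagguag
miR-93-5p: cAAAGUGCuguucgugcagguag

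The first 5 sequences share the seed AAGUGCU, yet the genes of miR-291a, miR-294, and miR-295 lie, from the first to the last mature miRNA, at chr7:3218932-3220837 (+) and those of miR-302b, miR-302a, and miR-302d at chr3:127545275-127545687 (+). miR-27a-3p and miR-27b-3p have the seed UCACAGU and lie on chromosomes 8 and 13. miR-146a-5p and miR-146b-5p have the seed GAGAACU and lie on chromosomes 11 and 19.

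Between WT and CLIPΔ mESCs, 63 of the 227 miRNAs (27.8%) passed an adjusted p of 0.05 (limma on log2(TPM + 1)). Of these, 44 (19.4%) were higher and 19 (8.37%) were lower in CLIPΔ mESCs. In 68 miRNAs (30%), the values of the 4 WT and the 4 CLIPΔ libraries did not overlap, and 58 of the 63 were among them. The 6 let-7 miRNAs were all among the 44, which left 38 higher and 19 lower among the other 221, of which 21 rose and 8 fell by at least 1 on the log2 scale. The median log2 fold change was 0.04 over all 227 and 0.00 without let-7. When each library was instead centred on its median miRNA, every log2 fold change dropped by 0.20, and 32 miRNAs were higher and 28 were lower. No miRNA of the 63 changed its sign under that scaling. With let-7 left out of the library total, 50 miRNAs were higher and 15 were lower. The deposited columns of both genotypes carry the letters A to D, and libraries of the same letter deviated together from their group means. Some libraries of unlike letters did so too, but less. With the letter as a block, 55.1% of the miRNAs passed, 77 higher (33.9%) and 48 lower (21.1%).

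The miRNAs that passed were mostly of low or middle abundance. Of the 85 miRNAs with a WT mean of at least 1000 TPM, 17 passed, and of the 17 of at least 10000 TPM, 2 passed, whereas the other 46 that passed were below 1000 TPM. Those 2 were miR-541-5p (log2 fold change -0.60 ± 0.20 (SE), limma adjusted p = 0.049, and 0.0566 to 0.133 when any library but CLIPΔ library D was left out) and miR-182-5p (log2 fold change -0.43 ± 0.14 (SE), limma adjusted p = 0.0432). The 6 most abundant miRNAs of WT mESCs, miR-295-3p, miR-294-3p, miR-182-5p, miR-183-5p, miR-293-3p, and miR-127-3p, held 54.7% of all miRNA values, and of these only miR-182-5p passed. The median WT value was 248 TPM for the 44 miRNAs that rose and 923 TPM for the 19 that fell. The number of reads behind each library, inferred from the steps between low values, was 5411246 to 8349737 in WT, 3133864 to 7889709 in CLIPΔ, and 829280 to 1328011 in the libraries without Ago2.

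**Figure D1:**
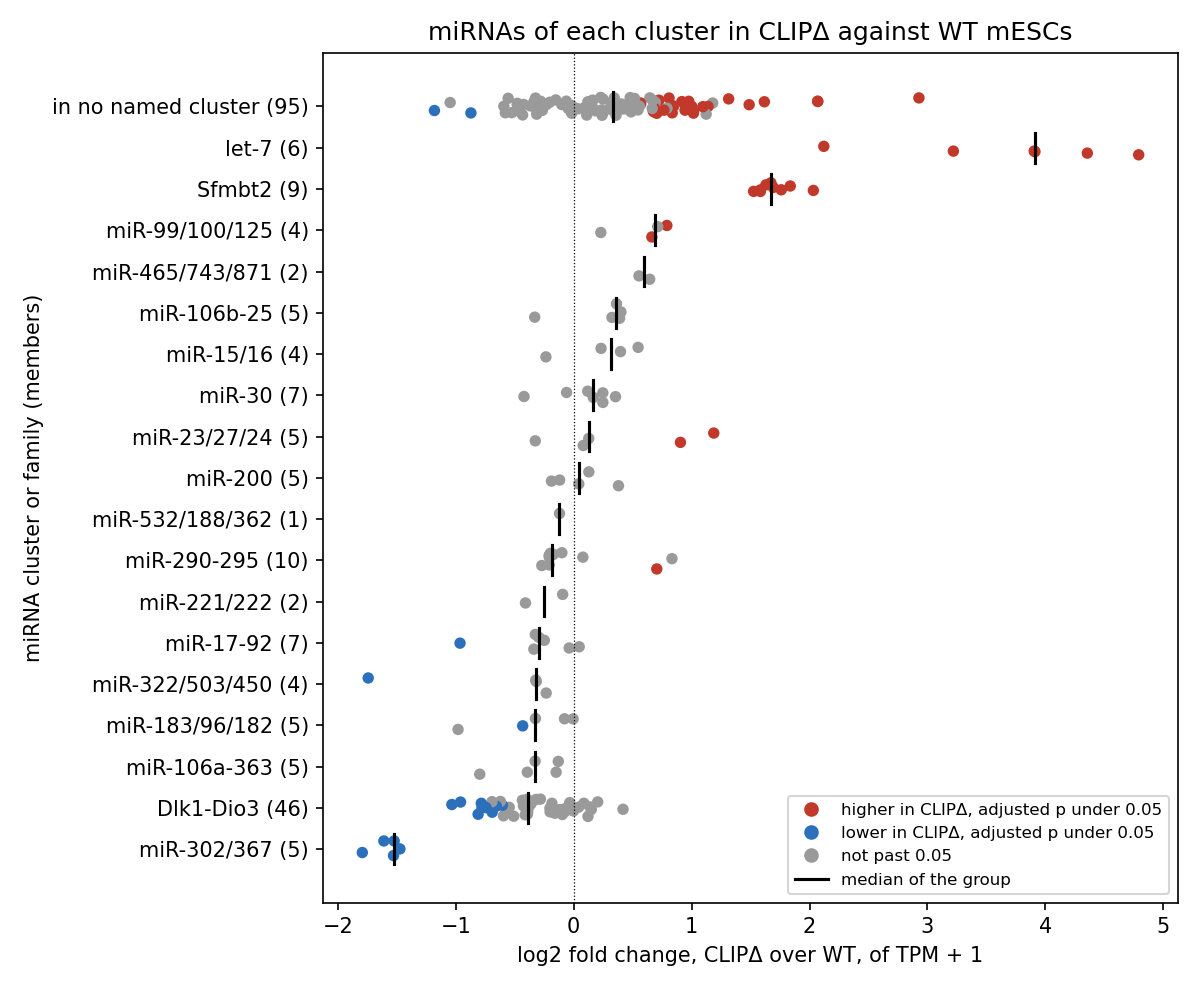
Each point is 1 of the 227 miRNAs, placed by its log2 fold change between CLIPΔ and WT mESCs (4 libraries each) and by its cluster or family, with the number of miRNAs in parentheses and the median as a black line. The 5 miRNAs of the miR-302 cluster lie between -1.79 and -1.47 and the 9 of the Sfmbt2 cluster between 1.53 and 2.03. The 6 let-7 miRNAs lie between 2.12 and 4.79. The medians of the other clusters lie nearer 0. Some of these clusters have miRNAs on both sides of 0, and others lie wholly above or wholly below it. In the *Dlk1*-*Dio3* region, 39 of 46 lie below 0.

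The largest decrease of a whole cluster was in the miR-302 cluster, whose miR-302 3p arms carry the embryonic AAGUGCU seed. All 5 measured members fell (5 of 5, against 8.37% of all miRNAs tested), by 1.47 to 1.79 on the log2 scale. miR-302d-3p, the most abundant of them, had 8641, 7304, 9096, and 6747 TPM in the WT libraries A to D and 2790.3, 2257, 3228, and 2795 TPM in the CLIPΔ libraries A to D (log2 fold change -1.52 ± 0.17 (SE), limma adjusted p = 0.000237). Every CLIPΔ library was below every WT library. miR-302a-3p had 2028, 1807, 2166, and 1977 TPM in WT and 651, 663, 787, and 667 TPM in CLIPΔ mESCs (log2 fold change -1.53 ± 0.16 (SE), limma adjusted p = 0.000156). miR-302b-3p had 882, 731, 889.6, and 1190.4 TPM in WT and 275, 280.4, 327, and 309 TPM in CLIPΔ mESCs (log2 fold change -1.61 ± 0.19 (SE), limma adjusted p = 0.000265). The other arms moved with them. miR-302a-5p was 2524, 1718, 3654, and 2661 TPM in WT and 742, 418, 1129, and 834 TPM in CLIPΔ mESCs (log2 fold change -1.79 ± 0.32 (SE), limma adjusted p = 0.00245), and within each genotype library C was the highest and library B the lowest. miR-302d-5p, the least abundant, fell by 1.47 ± 0.40 (SE, limma adjusted p = 0.0205), and missed the threshold without WT library A or C or without CLIPΔ library A (limma adjusted p = 0.0531, 0.0613, and 0.0625). The 4 further miRNAs of this cluster below the abundance limit also fell when all 507 were tested, by 1.17 to 1.76 (4 of 4, against 6.9% of the 507 lower). The cluster made up 1.42, 1.17, 1.597, and 1.28 percent of all miRNA values in the WT libraries and 0.450, 0.364, 0.556, and 0.469 percent in the CLIPΔ libraries.

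The miR-290 cluster shares the seed of miR-302 and was the most abundant cluster in both genotypes. Of its 10 members, 1 rose (miR-291b-3p, against 19.4% of all miRNAs tested), none fell (against 8.37%), and 9 did not pass. miR-291b-3p, a minor product, had 107, 114, 94.2, and 115 TPM in WT and 159, 178, 195, and 173 TPM in CLIPΔ mESCs (log2 fold change 0.70 ± 0.16 (SE), limma adjusted p = 0.00939), without overlap. Its partner arm miR-291b-5p had 87.4, 59.4, 80.7, and 138 TPM in WT and 141.2, 117, 177, and 204 TPM in CLIPΔ mESCs (log2 fold change 0.83), which missed the threshold (limma adjusted p = 0.0514) and passed with the letters as a block (adjusted p = 0.000976, limma). The other 8 members lay between -0.27 and 0.08. miR-295-3p, the most abundant miRNA of all, had 244280.0, 238864, 234702, and 181258 TPM in WT and 181763, 234511, 189549, and 190985 TPM in CLIPΔ mESCs (log2 fold change -0.17 ± 0.13 (SE), limma adjusted p = 0.38), and its groups overlapped. miR-294-3p had 87257, 82079, 97921, and 154719 TPM in WT and 75060.5, 87762, 85222, and 91320.2 TPM in CLIPΔ mESCs (log2 fold change -0.27 ± 0.19 (SE), limma adjusted p = 0.334). The whole cluster held 44.6, 43.4, 45.8, and 45.4 percent of the values in WT and 36.1, 44.1, 38.7, and 39.2 percent in CLIPΔ libraries, with CLIPΔ library B inside the WT range. With let-7 left out of the total, CLIPΔ library B was at 46.9 percent, above the 4 WT libraries, and the other 3 CLIPΔ libraries were below them. Thus, among miRNAs with a matched sequence, 3 AAGUGCU miRNAs of this cluster lay between -0.27 and -0.17, and 2 of miR-302 lay at -1.52 and -1.61. The summed share of these 5 was 35.2% ± 0.722 in WT and 29.9% ± 3.05 in CLIPΔ mESCs (SD, n = 4). miR-302a-3p, at -1.53, had no matched sequence and is not in this sum.

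**Figure D2:**
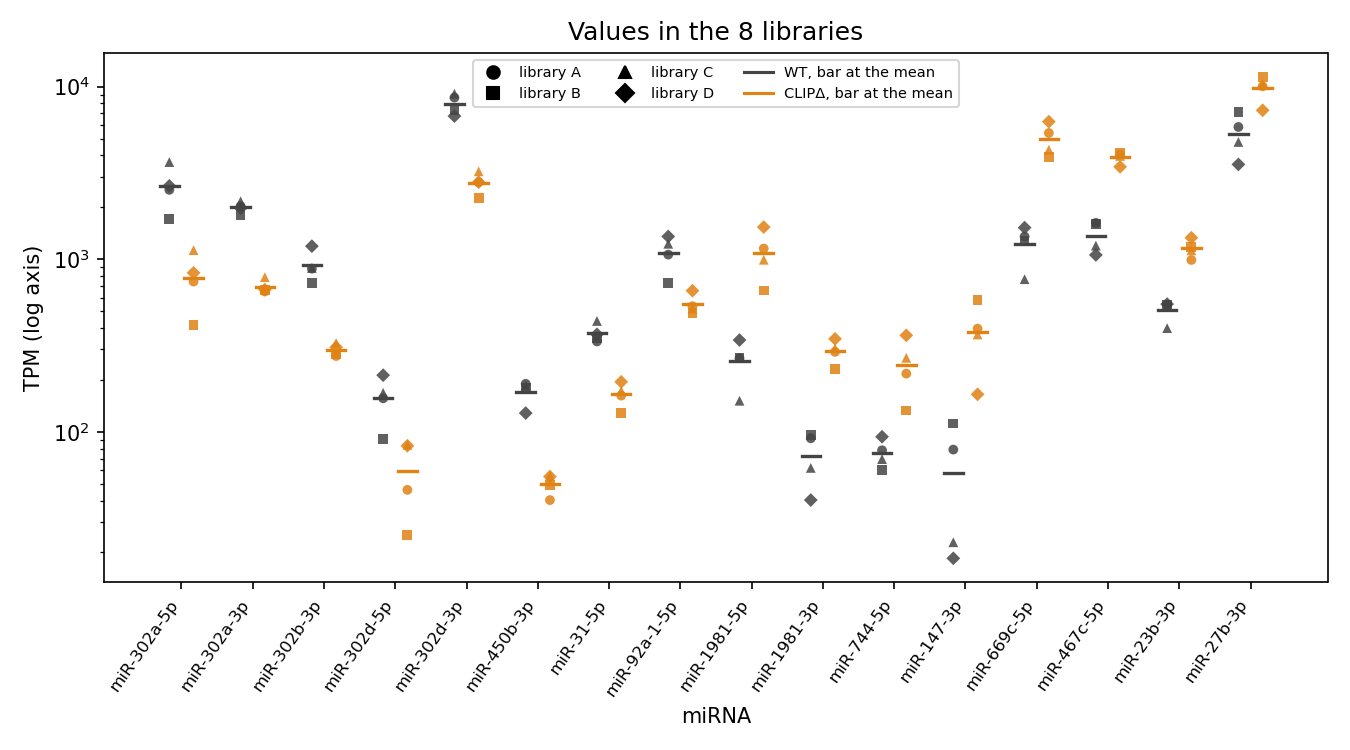
Values in TPM on a log axis of 16 miRNAs in the 4 WT (grey) and 4 CLIPΔ (orange) libraries, with a bar at the mean and a symbol for each library letter. The groups do not overlap in any of the 16, and in miR-302a-5p and miR-147-3p the 4 letters have the same order in both genotypes.

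The Sfmbt2 cluster is a large rodent array of miR-466, miR-467, and miR-669 genes in an intron of *Sfmbt2*, a Polycomb gene that is imprinted in mouse. All 9 measured members rose (9 of 9, against 19.4% of all miRNAs tested), by 1.53 to 2.03 on the log2 scale. The 9 were assigned to the cluster by name, and none was matched in RefSeq, so their positions were not checked. miR-669c-5p, with the largest rise, had 1353, 1282, 766, and 1524 TPM in WT and 5386, 3918, 4305, and 6265 TPM in CLIPΔ mESCs (log2 fold change 2.03 ± 0.25 (SE), limma adjusted p = 0.000274). miR-467c-5p, the most abundant in WT mESCs, had 1623, 1600.4, 1199, and 1059 TPM in WT and 4039, 4132, 3966, and 3430.3 TPM in CLIPΔ mESCs (log2 fold change 1.53 ± 0.19 (SE), limma adjusted p = 0.000274). Both showed no overlap between genotypes, and neither did 6 others of the 9. The exception was miR-466d-3p, with 55.9, 38.3, 26.4, and 220.1 TPM in WT and 161, 208, 195, and 222.3 TPM in CLIPΔ mESCs, where WT library D lay at the CLIPΔ level (log2 fold change 1.69 ± 0.54 (SE), limma adjusted p = 0.0432). It missed the threshold after median centring (adjusted p = 0.0591) in edgeR on the inferred reads (adjusted p = 0.198), and without any 1 of 7 of the 8 libraries (limma adjusted p of 0.0761 to 0.115), and was at 0.000207 without WT library D. The 9 further members below the abundance limit rose as well when all 507 were tested, by 1.02 to 1.97 (9 of 9, against 19.9% of the 507 higher). The 9 measured members together held 0.405% ± 0.0739 (SD, n = 4) of miRNA values in WT and 1.33% ± 0.0754 (SD, n = 4) in CLIPΔ mESCs, a ratio of 3.28. Near-identical sequences in this array can share reads, so the values of single members are uncertain. *Sfmbt2* mRNA was 1.27 and 0.952 TPM in WT and 1.67 and 1.27 TPM in CLIPΔ mESCs in RNA-seq (log2 fold change 0.23 ± 0.21 (SE), limma adjusted p = 1).

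The *Dlk1*-*Dio3* region of chromosome 12 is an imprinted domain whose maternal allele makes the long non-coding RNAs *Meg3*, *Rian*, and *Mirg* and, from the same strand, large arrays of miRNAs. With 46 measured miRNAs, it was the largest group, and 44 of them were placed at chr12:109572004-109743784 (+). Of the 46, 9 fell (8.37% of all miRNAs tested did), none rose, and 37 did not pass. Of the 9, 4 missed the threshold in at least 1 of the 8 fits that left out 1 library. miR-341-3p missed it without WT library B or C (limma adjusted p of 0.0507 to 0.0552), and miR-376c-3p without library A of either genotype, WT library B, or CLIPΔ library C (0.0509 to 0.0653). miR-494-3p missed it without any library but CLIPΔ library B (0.059 to 0.13), and miR-541-5p without any but CLIPΔ library D (0.0566 to 0.133). miR-494-3p and miR-541-5p also missed it with let-7 left out of the library total (limma adjusted p = 0.0708 and 0.0812). Among 36 further miRNAs of the region below the abundance limit, 3 fell and 2 rose when all 507 were tested (against 6.9% and 19.9% of the 507). The 2 that rose were the arms of miR-1247, with log2 fold changes of 1.84 for 5p and 1.99 for 3p, and the median of the 36 was -0.18. The 5p arm had 0.302, 0.123, 0.592, and 0.944 TPM in WT, below the 1 added before the logarithm. It had 3.81, 2.33, 6.52, and 5.21 TPM in CLIPΔ mESCs. The 3p arm had 13.3, 11.7, 5.59, and 3.57 TPM in WT and 57.9, 33.8, 23.1, and 26.7 TPM in CLIPΔ mESCs. The log2 fold change was below 0 in 39 of 46, with a median of -0.39 against 0.04 over all miRNAs. With the letters as a block, 24 fell and 1 rose (21.1% and 33.9% of all miRNAs did). miR-411-5p had 4201, 4471, 4709, and 4367 TPM in WT and 2373, 2455, 2809, and 2494 TPM in CLIPΔ mESCs (log2 fold change -0.81 ± 0.14 (SE), limma adjusted p = 0.00206), without overlap. miR-379-5p, the first hairpin of the distal array, had 5379, 5651, 6009, and 4914 TPM in WT and 3533, 3394, 3448, and 2473 TPM in CLIPΔ mESCs (log2 fold change -0.78 ± 0.17 (SE), limma adjusted p = 0.00687). miR-376b-5p fell by 0.96 ± 0.23 (SE, limma adjusted p = 0.0115). miR-127-5p, processed antisense to the imprinted gene *Rtl1*, had the lowest log2 fold change of the 46 (-1.03 ± 0.25 (SE), limma adjusted p = 0.0113). It had 150.3, 178, 154, and 118 TPM in WT and 90.2, 95.6, 64.4, and 48.5 TPM in CLIPΔ mESCs. Its other arm miR-127-3p, the most abundant miRNA of the region, had 36454, 33443, 35957, and 56203 TPM in WT and 26850.4, 21853, 29101, and 35248 TPM in CLIPΔ mESCs, so its groups overlapped, with WT library D the highest (log2 fold change -0.51, limma adjusted p = 0.0966, and 0.0043 with the block). The highest fold change of the 46 was that of miR-485-3p, which had 810.3, 556, 769, and 887 TPM in WT and 811, 701, 1031, and 1675 TPM in CLIPΔ mESCs (log2 fold change 0.42, limma adjusted p = 0.307, and 0.045 with the block). The region held 12.3, 11.7, 12.3, and 15.02 percent of miRNA values in the WT libraries and 9.65, 8.11, 9.73, and 11.4 percent in the CLIPΔ libraries, so every CLIPΔ library lay below the lowest WT library. With let-7 left out of the total, the shares were 12.4, 11.8, 12.4, and 15.1 percent and 10.4, 8.62, 10.4, and 12.2 percent, and CLIPΔ library D lay above WT library B.

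The long non-coding RNAs of the region were measured by RNA-seq, with 2 libraries of each genotype. *Meg3* was 147 and 132 TPM in WT and 82.3 and 68.7 TPM in CLIPΔ mESCs. *Rian*, which spans miR-341 and miR-370, was 36.7 and 33.8 TPM in WT and 20.3 and 21.4 TPM in CLIPΔ mESCs. *Mirg*, which spans part of the distal array, was 26.4 and 25.1 TPM in WT and 13.3 and 14.7 TPM in CLIPΔ mESCs. In all 3, both CLIPΔ libraries were below both WT libraries, as in either direction for 30.9% of the 11642 genes tested. The log2 fold changes were -0.88 ± 0.18, -0.73 ± 0.17, and -0.84 ± 0.17 (SE), and none passed after adjustment over all genes (limma adjusted p = 0.57, 0.635, and 0.572). With 2 libraries a group, none of the 11642 genes passed (0%), and 604 had an unadjusted p under 0.05.

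In mESCs without Ago2, the region differed in the opposite direction. *Ago2* mRNA was 1.67, 1.85, 1.97, and 2.29 TPM in the 4 *Ago2* KO and 1.51, 1.72, 2.87, and 2.60 TPM in the 4 *Ago2* KO/CLIPΔ RNA-seq libraries. All 46 miRNAs had higher values in *Ago2* KO/CLIPΔ than in *Ago2* KO mESCs, by 0.55 to 1.12 on the log2 scale, and 43 of them passed (19.4% of all 227 were significantly higher and 3.52% lower). Libraries of the same number deviated together in these genotypes too, but so did some of unlike numbers, so a pairing by number is not established. With the number as a block, all 46 passed (20.7% of all 227 were higher and 21.6% lower). Of the 181 miRNAs outside the region, 1 exceeded 0.5 in that comparison, miR-10b-5p, a miRNA of the *Hoxd* locus, with 1386, 1703, 1422, and 1525 TPM in *Ago2* KO and 4739.6, 4912, 5198, and 5207 TPM in *Ago2* KO/CLIPΔ mESCs. It is named here after its values were seen. The region held 13.1, 13.9, 13.01, and 13.4 percent of miRNA values in the 4 *Ago2* KO libraries and 23.9, 24.7, 23.5, and 23.95 percent in the 4 *Ago2* KO/CLIPΔ libraries. The difference between the deletion’s effects with and without Ago2 passed for 38 of the 46 (limma interaction, against 48.5% of all 227), the 9 that fell among them, and for 44 with letters and numbers as a block (against 64.3% of all 227). The 9 were selected by the effect with Ago2, which this difference contains, so their passing is a description. For miR-411-5p this difference was 1.78 ± 0.15 (SE), limma adjusted p = 1.95e-07. The long non-coding RNAs also had higher values in *Ago2* KO/CLIPΔ mESCs. *Meg3* was 29.1, 27.9, 23.3, and 27.3 TPM in *Ago2* KO and 39.3, 49.99, 73.1, and 66.7 TPM in *Ago2* KO/CLIPΔ mESCs, a 2.13-fold difference. *Rian* was 9.51, 11.4, 9.19, and 9.97 TPM in *Ago2* KO and 16.1, 18.2, 25.0, and 26.3 TPM in *Ago2* KO/CLIPΔ mESCs, and *Mirg* differed 1.94-fold. For each of the 3, the groups did not overlap, as for 13.1% of the genes tested (two-sided exact permutation test, p = 0.0286 each, the smallest that 4 against 4 libraries allow, and 0.05 after Benjamini–Hochberg adjustment over 7 transcripts). RNA-seq libraries of the same number also deviated together, but so did some of unlike numbers. Paired by number, each *Ago2* KO/CLIPΔ library was above its *Ago2* KO library in all 4 pairs for each of the 3. There the paired exact permutation test gave p = 0.125, the smallest that 4 pairs allow two-sided. Since the clones behind the libraries are not stated, an effect of the deletion and a difference between clones cannot be told apart.

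**Figure D3:**
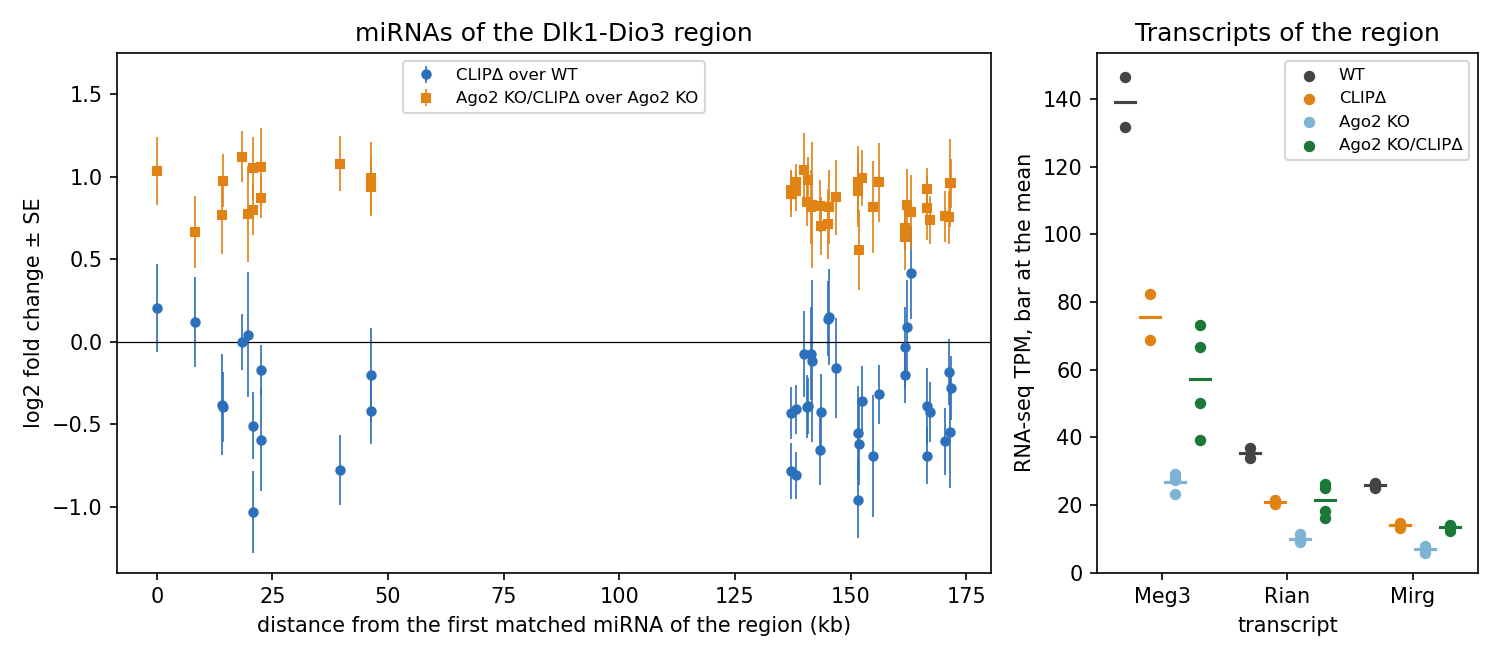
Left, log2 fold change ± SE of 44 miRNAs of the *Dlk1*-*Dio3* region by distance in kb from the first of them, for CLIPΔ over WT (blue) and *Ago2* KO/CLIPΔ over *Ago2* KO (orange, 4 libraries a group). Right, RNA-seq values in TPM of *Meg3*, *Rian*, and *Mirg* in the 4 genotypes with a bar at the mean. The orange points are all above 0 and most blue points are below 0 along the whole 172 kb, and the 3 transcripts are lower in CLIPΔ than in WT and higher in *Ago2* KO/CLIPΔ than in *Ago2* KO mESCs.

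Across the 227 miRNAs, the difference between the effects of the deletion with and without Ago2 passed in 110 (48.5%). The 44 miRNAs higher and 19 lower in CLIPΔ mESCs were selected by the effect with Ago2, which this difference contains. Their counts are therefore a description, and 48.5% is not a like comparison for them. Of the 44 miRNAs higher in CLIPΔ mESCs, 43 were among these 110 and none was significantly higher in *Ago2* KO/CLIPΔ over *Ago2* KO mESCs. The exception was miR-324-5p (limma adjusted p = 0.193), whose rise itself missed the threshold when any library but WT B and CLIPΔ D was left out (limma adjusted p of 0.0577 to 0.115). Of the 19 lower in CLIPΔ mESCs, 17 were among them, and miR-182-5p and miR-302d-5p were not (limma adjusted p = 0.554 and 0.0697). With letters and numbers as a block, miR-302d-5p passed as well (limma adjusted p = 0.000566). In the *Ago2* KO background, the log2 fold change of the 9 Sfmbt2-cluster miRNAs lay between -0.64 and -0.06, that of the 5 miR-302 miRNAs between -0.39 and -0.14, and that of the 6 let-7 miRNAs between -0.36 and 0.49. Over all 227, the median was -0.14. With the number as a block, 5 of the 9 Sfmbt2-cluster miRNAs were lower in *Ago2* KO/CLIPΔ mESCs against 1 without it, 1 of the 5 miR-302 miRNAs was against none, and no let-7 miRNA passed in either fit (21.6% of all 227 were lower with the block and 3.52% without it). miR-302a-3p had 1378, 1004, 1277, and 1207 TPM in *Ago2* KO and 1155, 1026, 1069.6, and 1149 TPM in *Ago2* KO/CLIPΔ mESCs, and the difference of effects was 1.39 ± 0.18 (SE), limma adjusted p = 9.93e-06. miR-669c-5p had 256, 348, 223, and 241 and 225, 209, 178, and 172 TPM, and its difference of effects was -2.47 ± 0.30 (SE), limma adjusted p = 6.71e-06. The libraries without Ago2 held fewer reads than all others, and the part of that depth in these differences was not tested.

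**Figure D4:**
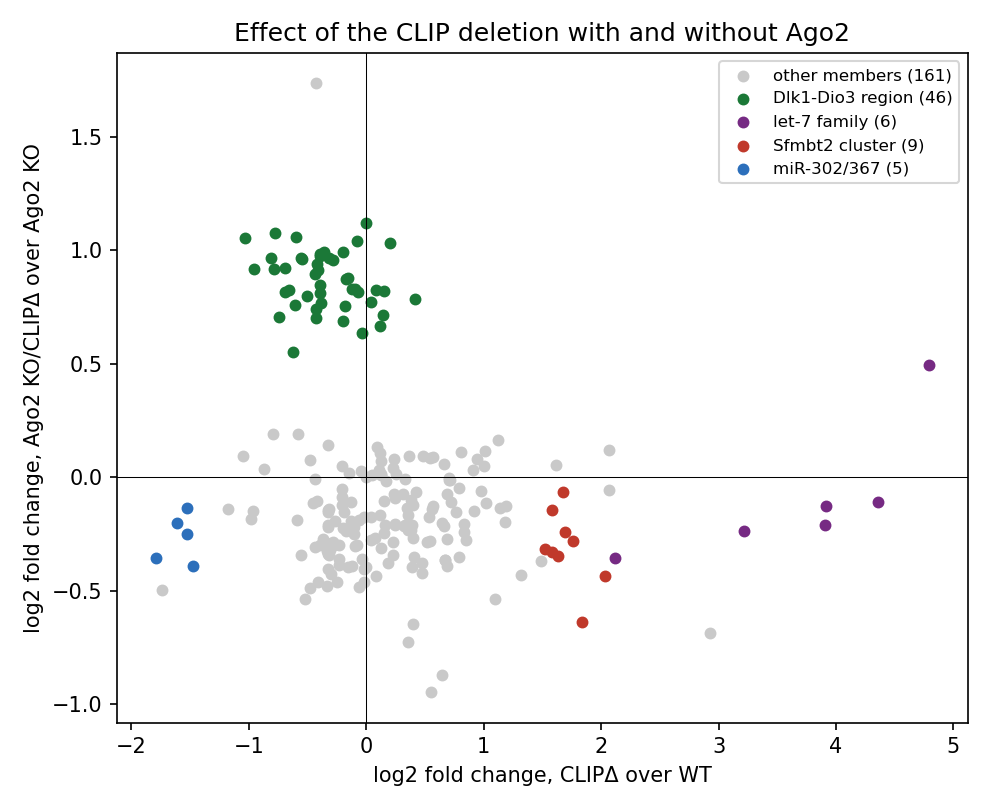
Each point is 1 of 227 miRNAs, with the log2 fold change of CLIPΔ over WT on the horizontal axis and of *Ago2* KO/CLIPΔ over *Ago2* KO on the vertical axis (4 libraries in each of the 4 groups). The 46 miRNAs of the *Dlk1*-*Dio3* region form a band between 0.55 and 1.12 on the vertical axis, apart from nearly all others, whereas the let-7, Sfmbt2, and miR-302 miRNAs stand apart on the horizontal axis.

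The let-7 family, with the seed GAGGUAG, represses growth and pluripotency genes, and its members come from several loci. All 6 measured members rose, by 2.12 (let-7e-5p) to 4.79 (let-7b-5p). The share of these 6 in miRNA values went from 0.713% ± 0.375 (SD, n = 4) in WT to 6.48% ± 0.588 (SD, n = 4) in CLIPΔ mESCs. The 6 do not include let-7a-5p, let-7c-5p, or let-7f-5p, so this is not the share of the whole family. Of 9 further let-7 miRNAs below the abundance limit, 8 rose when all 507 were tested (against 19.9% of the 507). let-7e shares its primary RNA with miR-99b and miR-125a at chr17:17830194-17830876 (+), inside *Spaca6*. let-7e-5p had 1968, 1647, 1182, and 1270.1 TPM in WT and 7534, 4924, 6261, and 7509.9 TPM in CLIPΔ mESCs. Its neighbours had smaller log2 fold changes, and that difference was not tested. miR-99b-3p had 459, 377, 356, and 375 TPM in WT and 825, 519, 718, and 673 TPM in CLIPΔ mESCs (log2 fold change 0.79 ± 0.19 (SE), limma adjusted p = 0.0115), miR-125a-5p had a log2 fold change of 0.66 ± 0.22 (SE, limma adjusted p = 0.0477, and 0.0813 to 0.112 when any library but CLIPΔ library B was left out), and miR-99b-5p, the most abundant, had 6768, 6037, 6132, and 11018 TPM in WT and 11137, 8645, 12926, and 15997 TPM in CLIPΔ mESCs (log2 fold change 0.71, limma adjusted p = 0.0595, and 0.00109 with the block). miR-125a-3p was at 0.23 and did not pass. miR-125b-1-3p, a related miRNA from another locus and below the abundance limit, had 56.7, 12.04, 75.7, and 100.3 TPM in WT and 1.37, 1.81, 2.98, and 5.86 TPM in CLIPΔ mESCs (log2 fold change -3.74 and limma adjusted p = 0.000962 when all 507 were tested). *Spaca6* was 7.91 and 12.3 TPM in WT and 7.60 and 10.7 TPM in CLIPΔ mESCs, and its groups overlapped.

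No miRNA with the seed of miR-17 passed. The miR-17 cluster and its paralogues, the miR-106a and miR-106b clusters, promote proliferation and share the seed AAAGUGC in 6 of the measured miRNAs. Their log2 fold changes ranged from -0.39 (miR-20b-5p) to 0.39 (miR-93-5p). In the miR-106b cluster, inside *Mcm7*, 4 of 5 members were above 0 and none passed, while with the letters as a block 3 were higher (33.9% of all miRNAs were). miR-25-3p, its most abundant member, had 27285, 25943, 26037, and 28357 TPM in WT and 34269, 27816, 36370.2, and 37060.2 TPM in CLIPΔ mESCs (log2 fold change 0.32, limma adjusted p = 0.104, and 0.0399 with the block). In the miR-106a cluster on the X chromosome, all 5 were below 0 and none passed, while 2 were lower with the block (21.1% of all miRNAs were). In the miR-17 cluster, 6 of 7 were below 0 and 1 fell (against 8.37% of all miRNAs). This was miR-92a-1-5p, the minor arm of miR-92a-1, with 1064, 727, 1229, and 1354 TPM in WT and 534, 488, 517, and 657 TPM in CLIPΔ mESCs (log2 fold change -0.96 ± 0.22 (SE), limma adjusted p = 0.00939), without overlap. The other arm of this hairpin, miR-92a-3p, is not counted among the 7 and did not pass (log2 fold change -0.31). The cluster mate miR-17-5p was at -0.04 (limma adjusted p = 0.872), a value whose sign depended on the scaling.

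In 3 further clusters, some members passed and others did not. miR-450b-3p, from the miR-322 cluster of the X chromosome, had the second lowest fold change of all, with 189.7, 179, 185, and 128 TPM in WT and 40.2, 49.3, 55.7, and 55.1 TPM in CLIPΔ mESCs (log2 fold change -1.74 ± 0.20 (SE), limma adjusted p = 0.000237). Its groups were far apart, while miR-322-5p, the most abundant of the 4 members and about 6 kb away, was at -0.23 (limma adjusted p = 0.461). The other arm, miR-450b-5p, was below the abundance limit at 114 ± 41.8 TPM in WT and 25.0 ± 10.9 TPM in CLIPΔ mESCs (SD, n = 4), and its log2 fold change was -2.14 when all 507 were tested (limma adjusted p = 0.00223), as 1 of 2 that fell among 4 such miRNAs of the cluster (against 6.9% of the 507). Of the miR-23 and miR-27 genes, miR-23b-3p (log2 fold change 1.19 ± 0.18 (SE), limma adjusted p = 0.00076) and miR-27b-3p (log2 fold change 0.91 ± 0.24 (SE), limma adjusted p = 0.0166) rose. miR-27b-3p comes from chromosome 13, and missed the threshold without WT library C, CLIPΔ library A, or CLIPΔ library C (limma adjusted p = 0.0532, 0.0509, and 0.0527). miR-27a-3p, which has the same seed as miR-27b-3p but a gene on chromosome 8, had 371, 361.8, 489, and 275 TPM in WT and 249.7, 417, 328, and 214 TPM in CLIPΔ mESCs (log2 fold change -0.33 ± 0.26 (SE), limma adjusted p = 0.385), against 5836, 7103, 4778, and 3542 TPM in WT and 10047, 11359, 10388, and 7289 TPM in CLIPΔ mESCs for miR-27b-3p. Of the miR-146 pair, regulators of innate signalling, miR-146a-5p rose (log2 fold change 1.02 ± 0.22 (SE), limma adjusted p = 0.00729) and miR-146b-5p was at 0.11 (limma adjusted p = 0.708). Neither difference within these pairs was tested. miR-182-5p, the most abundant miRNA of the miR-183 cluster, was 72694, 79819.6, 73358, and 60866 TPM in WT and 63443, 50680.2, 49541, and 49070.1 TPM in CLIPΔ mESCs, where CLIPΔ library A overlapped the WT range. It missed the threshold without any 1 of 6 of the 8 libraries (all but WT library D and CLIPΔ library A, limma adjusted p of 0.0577 to 0.129), and with let-7 left out of the library total (limma adjusted p = 0.0949). The other 4 members of that cluster were between -0.98 and -0.00 and did not pass. The lowest of them, miR-182-3p, was close to the threshold (limma adjusted p = 0.0543), and passed with the letters as a block (adjusted p = 0.000287, limma) and under median centring (adjusted p = 0.0377, limma).

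Several miRNAs outside clusters were among the largest changes. miR-147-3p, known from macrophages, had 78.9, 112, 22.9, and 18.5 TPM in WT and 396, 581, 366, and 165 TPM in CLIPΔ mESCs (log2 fold change 2.93 ± 0.59 (SE), limma adjusted p = 0.00489), which was the largest rise outside let-7. The order of the 4 letters was the same in both genotypes, with D the lowest and B the highest, and the groups did not overlap. miR-1981, in *Marc2*, rose in both arms. miR-1981-5p had 267, 269, 151, and 340.3 TPM in WT and 1153, 659.5, 993, and 1535 TPM in CLIPΔ mESCs (log2 fold change 2.07 ± 0.31 (SE), limma adjusted p = 0.000737), and miR-1981-3p had 91.8, 95.6, 61.8, and 40.2 TPM in WT and 291, 232, 305, and 346 TPM in CLIPΔ mESCs (log2 fold change 2.07 ± 0.28 (SE), limma adjusted p = 0.00047). *Marc2*, a mitochondrial reductase gene, was 27.4 and 38.4 TPM in WT and 48.5 and 77.2 TPM in CLIPΔ mESCs (log2 fold change 0.90 ± 0.30 (SE), limma adjusted p = 0.858). miR-744-5p, in *Map2k4*, had 78.2, 60.1, 69.5, and 93.7 TPM in WT and 217, 133, 268, and 362.3 TPM in CLIPΔ mESCs (log2 fold change 1.62 ± 0.30 (SE), limma adjusted p = 0.00272), whereas *Map2k4* was 9.28 and 5.39 TPM in WT and 8.76 and 5.41 TPM in CLIPΔ mESCs. miR-211-5p, in the melanocyte gene *Trpm1*, rose by 1.49 ± 0.27 (SE, limma adjusted p = 0.00238), and miR-29a-3p, a repressor of collagen genes, by 1.31 ± 0.28 (SE, limma adjusted p = 0.00677). In WT mESCs, miR-672-5p was the most abundant of the 44 miRNAs that rose, with 5313, 4617, 4679.8, and 8783 TPM in WT and 11930.3, 8976, 11373, and 17246 TPM in CLIPΔ mESCs (log2 fold change 1.10 ± 0.26 (SE), limma adjusted p = 0.0109). Outside clusters, 2 miRNAs fell. miR-31-5p, at chr4:88910614-88910635 (-), had 334, 349.7, 439, and 367.2 TPM in WT and 162, 129, 173, and 195 TPM in CLIPΔ mESCs (log2 fold change -1.18 ± 0.19 (SE), limma adjusted p = 0.00103), without overlap. miR-142a-5p, a miRNA of blood cells, had 296, 434, 244, and 259 TPM in WT and 152.3, 263, 161, and 111 TPM in CLIPΔ mESCs (log2 fold change -0.87 ± 0.29 (SE), limma adjusted p = 0.0477), with overlap. It missed the threshold without any 1 of 6 of the 8 libraries (all but WT library D and CLIPΔ library B, limma adjusted p of 0.0648 to 0.122), and with let-7 left out of the library total (limma adjusted p = 0.066).

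Both arms of 47 hairpins were among the 227, none of them of let-7. The log2 fold change had the same sign in both arms of 42 hairpins. Both arms passed in 4 (miR-302a, miR-302d, miR-1981, and miR-3068), always in the same direction, and 1 arm passed in 13. The median size of the difference between the arms was 0.189, against 0.308 for 615 pairs of miRNAs from neighbouring hairpins (steps of at most 10 kb), 0.48 for 37 pairs with the same seed from other loci, and 0.578 for 16698 pairs with neither, let-7 left out of all these. Most of the 615 pairs lie in the *Dlk1*-*Dio3* region, where 1 run of neighbouring hairpins holds 31 miRNAs. Pairs of all these kinds share miRNAs, so the values are a description. The arms of miR-27b differed most, at 0.91 for 3p and 0.13 for 5p. miR-25 had arms of opposite sign, 0.32 and -0.33, and neither passed. The first base was U in 53.8% of the 26 matched miRNAs that rose outside let-7, in 47.1% of the 17 that fell, and in 38.8% of the 147 that did not pass. The median GC content was 50%, 45.5%, and 45.5%.

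**Figure D5:**
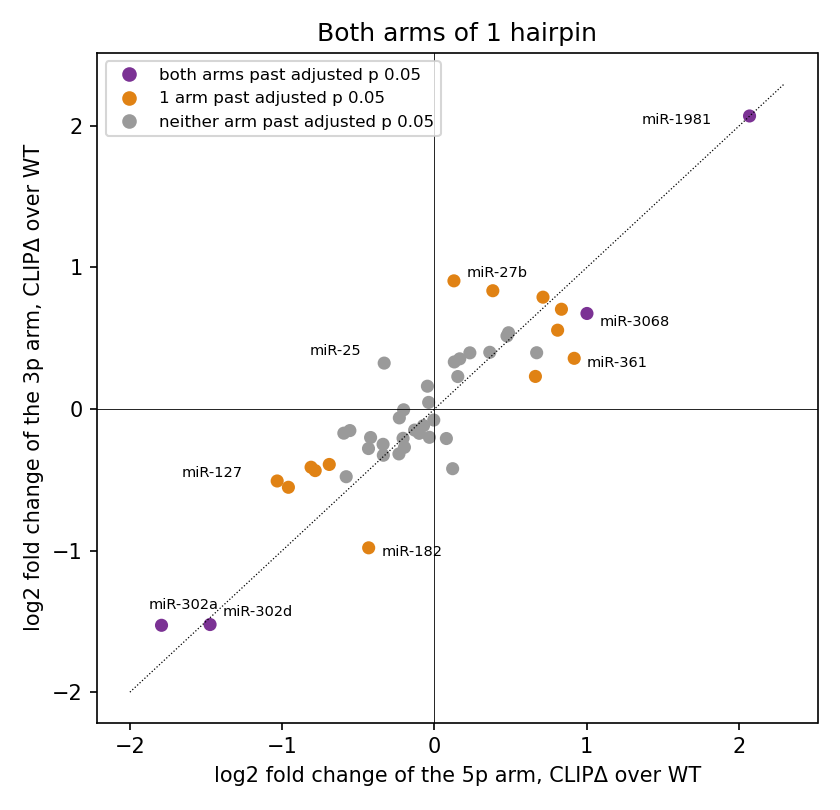
Log2 fold change between CLIPΔ and WT mESCs (4 libraries each) of the 3p arm against that of the 5p arm for 47 hairpins, coloured by how many arms passed an adjusted p of 0.05. The points follow the dotted line of equal change, with miR-1981 at the top and miR-302a and miR-302d at the bottom.

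Annotated genes on the same strand (GENCODE M21, mm10), with *Sfmbt2* added, hosted measured miRNAs in 69 cases, of which 52 were tested in RNA-seq. None passed (limma, 0% of all genes), 5 had an unadjusted p under 0.05, and 24 changed in the same direction as the median of their miRNAs. The groups did not overlap in 23 of the 52, against 30.9% of all genes. *Mcm7*, host of the miR-106b cluster and a replication helicase subunit, was 610.4 and 646 TPM in WT and 685 and 753 TPM in CLIPΔ mESCs. *Mir17hg*, the primary RNA of the miR-17 cluster, was 93.5 and 46.1 TPM in WT and 56.4 and 30.8 TPM in CLIPΔ mESCs, with overlap. *Ago2* mRNA itself was 28.2 and 21.6 TPM in WT and 27.3 and 20.3 TPM in CLIPΔ mESCs, which differed by less than the spread (log2 fold change -0.06 ± 0.24 (SE), limma adjusted p = 1). A value for the whole gene does not check the deletion, which removes part of the 3’UTR. Of 498 deposited Trim71 CLIP peaks, 1 lay within 50 nt of a hairpin of the measured miRNAs on the same strand (146 hairpins searched). It was at the let-7i hairpin, at chr10:122985718-122985720, with 1458 reads.

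No miRNA of the lists for muscle (miR-1, miR-133, miR-206), liver (miR-122), neural cells (miR-124, miR-9, miR-219), and endothelium or red cells (miR-126, miR-451a) was among the 507 analysed, each of which was above 0 in all 16 libraries. Of the 227 miRNAs, 3 matched more than 1 locus, and whether the 507 leave out miRNAs made from several loci was not tested. A miRNA missing from the 507 can therefore not be read as absent from the cells. The 3 listed miRNAs of blood cells summed to 466.7 to 601 TPM in WT and 369 to 531 TPM in CLIPΔ libraries. Of these, miR-150-5p (log2 fold change 0.39) and miR-150-3p (log2 fold change 0.48) did not pass (limma adjusted p = 0.504 and 0.617 over all 507), and miR-142a-5p fell. The 4 of mesenchyme (miR-143, miR-145a) summed to 457 to 826 and 423 to 1227 TPM. The 5 of *Hox* loci (miR-10, miR-196) summed to 4016 to 4919.8 and 2945 to 3873 TPM, where miR-196a-5p rose (log2 fold change 0.72 ± 0.18 (SE), limma adjusted p = 0.0119) and miR-10b-5p did not pass (log2 fold change -0.42). In bulk libraries, fewer cells of a type and less of a miRNA per cell cannot be told apart.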

How the data were processed

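The authors deposited small RNA values as TPM (reads of a miRNA divided by its length and scaled to a common library total) for 507 miRNAs. Shares of these values are therefore not shares of reads. They also deposited RNA-seq values as TPM per gene, and a Trim71 CLIP-seq peak list with read counts pooled over immunoprecipitations. Per the labels, reads were trimmed with cutadapt, aligned with HISAT2 2.1.0 and counted against mm10. Columns named d3 were read as CLIPΔ. The column letters A to D match no single sample label. Each small RNA library was rescaled to 1 total over the 507 miRNAs. log2(TPM + 1) was fitted with limma 3.58.1 (R 4.3.3, trended variance) with Benjamini–Hochberg adjustment over the 227 miRNAs whose deposited mean was at least 100, and the Ago2 contrast as an interaction over 16 libraries. RNA-seq genes averaging 1 TPM or more were tested likewise. Reads inferred from steps between low values were tested with edgeR 4.0.16 as an alternative. Scripts were tested on simulated data. TPM fold changes are relative to the library total.

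Same-letter WT and CLIPΔ libraries deviated together (r = 0.384, 0.710, 0.349, and 0.744 for A to D over the 227 miRNAs), so the letters were also fitted as a block. Some unlike letters correlated too, but less. The highest were WT A with CLIPΔ B (0.307), WT B with CLIPΔ A (0.281), and WT D with CLIPΔ C (0.217). The labels state no pairing by letter. Same-number *Ago2* KO and *Ago2* KO/CLIPΔ libraries also deviated together (r = 0.248, 0.351, 0.377, and 0.233 for 1 to 4 over the 227 miRNAs, and 0.428, 0.320, 0.419, and 0.357 over RNA-seq genes), and their numbers were treated likewise, an alternative added after seeing the data. Some unlike numbers correlated as much. *Ago2* KO 4 with *Ago2* KO/CLIPΔ 3 gave 0.257 over the miRNAs and 0.464 over RNA-seq genes. In the same order, 3 with 4 gave 0.324 and 0.340, 2 with 1 gave 0.301 and 0.334, and 1 with 2 gave 0.0253 and 0.381. Pairs of 1 or 2 with 3 or 4, in either order, were below 0. These values therefore do not single out a pairing by number. The miRNAs, lists and clusters were chosen with earlier results of these data known. Named were the 12 highest and 12 lowest log2 fold changes past an adjusted p of 0.05 outside let-7, their other arms, the most abundant, highest and lowest member of each cluster or family, the 6 most abundant miRNAs, the extremes of let-7, and host genes. Named beyond this rule, after values were seen, were miR-10b-5p, miR-125a-5p, miR-125b-1-3p, miR-1247-3p, miR-1247-5p, miR-146a-5p, miR-146b-5p, miR-196a-5p, miR-211-5p, miR-291a-3p, miR-291a-5p, miR-291b-3p, miR-29a-3p, miR-324-5p, miR-341-3p, miR-376c-3p, miR-379-5p, miR-494-3p, miR-541-5p, miR-672-5p, and miR-93-5p. The Ago2 KO RNA-seq values were also added after seeing the data. Sequences and positions are from RefSeq (GRCm38.p6) and hosts from GENCODE M21.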

Additional observations from a re-analysis of the deposited data

Results flagged for a closer look

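Of 134 groups of 4 libraries tested over the 67 named miRNAs, 16 held 1 library far from the other 3 (Dixon’s test), and chance gives about 1 in 20. In 9 of the 16 it was WT library D. It was high in miR-106b-3p (3344 TPM), miR-127-3p (56203 TPM), miR-15b-5p (939.5 TPM), miR-466d-3p (220.1 TPM), miR-470-5p (395 TPM), miR-99b-5p (11018 TPM), and low in miR-16-2-3p (143 TPM), miR-20b-5p (2745 TPM), miR-295-3p (181258 TPM). WT library C was low in miR-23b-3p (399 TPM). CLIPΔ library A was high in miR-182-5p (63443 TPM), miR-222-3p (523 TPM), and miR-30b-3p (163 TPM). CLIPΔ library B was low in miR-30a-3p (986 TPM) and high in miR-871-5p (155 TPM), and CLIPΔ library C was high in miR-302a-3p (787 TPM).

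The log2 effect of the CLIP deletion differed between mESCs without and with Ago2 for 41 of the 67 named miRNAs (limma interaction, adjusted p under 0.05 over all 227). Many of the 67 were named for their effect with Ago2, which this difference contains, so the count is a description. Values are the effect without Ago2 minus the effect with Ago2. In the Sfmbt2 cluster they were miR-466d-3p (-1.94), miR-466h-5p (-1.73), miR-467c-5p (-1.84), miR-467d-5p (-2.47), miR-467e-5p (-1.98), miR-669c-5p (-2.47), miR-669f-5p (-1.74), miR-669l-5p (-1.91), miR-669o-5p (-2.04). In let-7 they were let-7b-5p (-4.30), let-7e-5p (-2.48), let-7g-5p (-3.46). In the *Dlk1*-*Dio3* region they were miR-127-3p (1.31), miR-127-5p (2.09), miR-376b-3p (1.52), miR-376b-5p (1.88), miR-411-3p (1.32), miR-411-5p (1.78). In miR-302 they were miR-302a-3p (1.39), miR-302a-5p (1.44), miR-302b-3p (1.41), miR-302d-3p (1.27). Other miRNAs with a negative difference were miR-147-3p (-3.61), miR-183-5p (-0.39), miR-1981-3p (-1.95), miR-1981-5p (-2.12), miR-200c-3p (-0.61), miR-23b-3p (-1.31), miR-25-3p (-0.54), miR-27b-3p (-0.88), miR-291b-5p (-1.04), miR-30a-3p (-0.52), miR-470-5p (-1.52), miR-744-5p (-1.56), miR-871-5p (-1.50), miR-99b-3p (-0.84), miR-99b-5p (-0.72). Other miRNAs with a positive difference were miR-142a-5p (0.91), miR-31-5p (1.04), miR-450b-3p (1.25), miR-92a-1-5p (0.82).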

How the results depend on the processing

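Of the 63 miRNAs, 46 passed in every fit that left out 1 library and 42 passed under all 17 alternatives in which they were tested. The share that passed was 26.8% (101 higher, 35 lower) without a filter on low values, where 507 miRNAs were tested, 22.9% (11 higher, 8 lower) at a mean of at least 1000, where 83 were tested, and 55.1% (77 higher, 48 lower) with the replicate block. Without 1 library it was 21.1% to 31.7%, and without both D libraries, an alternative chosen after seeing the data, 32.2%. Median centring gave 32 higher and 28 lower, the total without let-7 gave 50 higher and 15 lower, and edgeR on inferred reads gave 39 higher and 24 lower. The interaction passed in 110 of 227 miRNAs (48.5%), and in 97 of 227 under median centring. It passed in 211 of 507 without a filter (41.6%), and in 146 of 227 with the replicate block (64.3%). Between *Ago2* KO/CLIPΔ and *Ago2* KO mESCs, 44 were higher and 8 lower, and 47 higher and 49 lower with the replicate block, an alternative chosen after seeing the data. RNA-seq replicate numbers are shared without a stated pairing (r of the deviations of replicate 1 over genes was 0.716), and with them as a replicate block 4 host transcripts passed against 0 (2.86% of all genes). These were *Rian*, *Mirg*, *Marc2*, and *Mir17hg* (limma adjusted p = 0.0396, 0.0325, 0.0274, and 0.0427), and *Meg3* passed as well (limma adjusted p = 0.0237). The Sfmbt2 share difference was 1.01 percentage points with let-7 left out of the total, against 0.925. The sign of the log2 fold change turned in 5 named miRNAs near 0. miR-17-3p was -0.154 under median centring, -0.0341 in edgeR, and -0.0434 to 0.147 without 1 library. miR-17-5p was 0.0486 with the total without let-7 and -0.121 to 0.0137 without 1 library. miR-183-5p was 0.0823 with that total, 0.00608 without both D libraries, and -0.0711 to 0.0484 without 1 library. miR-200a-3p was -0.442 to 0.0936 without 1 library, and miR-222-3p was 0.00416 without both D libraries. The cause of these changes was not tested.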
